A study of Homo sapiens with 12 samples.

Results

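The levels of 10 genes linked to feedback on, or output of, the kinase ERK were followed in SU-DHL-4. This is an established cell line of germinal centre B-cell type diffuse large B-cell lymphoma (DLBCL). It was grown out of a peritoneal effusion and is labelled wild type. The genes were chosen by name from the 46863 genes of the count table, as dual-specificity phosphatases (DUSP2, DUSP4, DUSP5, DUSP6, DUSP10), Sprouty and SPRED inhibitors (SPRY1, SPRY2, SPRED1, SPRED2) and the ETS factor ETV5, which are known to be transcribed when ERK is active. The 12 libraries fell into 4 groups of 3, each exposed for 72 h to the solvent DMSO, to 1 µM entospletinib (Ento, an inhibitor of the B-cell receptor kinase SYK), to 0.01 µM AZD5153 (AZD, a bivalent inhibitor of the BET bromodomain proteins), or to both (Ento+AZD). The study's design text names the libraries of a group as biological replicates. All 12 come from this 1 cell line, and no other cells were included, so the values describe that line only.

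ERK is the last kinase of the RAS-RAF-MEK-ERK cascade, which in B cells is switched on by the antigen receptor through SYK and RAS exchange factors. Active ERK induces its own brakes. Dual-specificity phosphatases remove phosphate from ERK and related MAP kinases, Sprouty proteins act on the receptor-proximal steps, and SPRED proteins bring the RAS GTPase-activating protein neurofibromin to the membrane. Transcripts of these genes are therefore often read as a record of ERK activity, although other pathways also regulate them.

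Of the 10 genes, 7 could be tested, and 3 of them passed a test against DMSO in at least 1 treatment group. Upon Ento 1 of 7 passed, upon AZD 1 and upon Ento+AZD 3, where 8.32%, 22.2% and 40.0% of all tested genes did. DUSP2, a nuclear phosphatase of activated lymphocytes, fell by 37.2% upon Ento+AZD. SPRED1 fell by 23.2% upon Ento and by 24.0% upon Ento+AZD, whereas its relative SPRED2 rose by 37.1% upon AZD and by 46.7% upon Ento+AZD. DUSP5, DUSP6, DUSP10 and ETV5 passed in no comparison with DMSO. SPRY2 and DUSP4 had no count in any library, and SPRY1 had 7 counts over all 12.

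The sequence just upstream of the transcript start is shown for the 3 genes that passed a test and, for contrast, for the silent gene SPRY2. The letters are from RefSeq, build GRCh38.p14, and each run ends at the base before the first exon. The most upstream annotated start is shown, and the SPRED2 run is 212 bases long rather than 250. No exon of another gene overlapped the exons of these 4 genes. DUSP2 occupies chr2:96143169-96145440 on the minus strand, SPRED1 chr15:38252836-38357249 on the plus strand, SPRED2 chr2:65310851-65432637 on the minus strand and SPRY2 chr13:80335976-80341126 on the minus strand. Capitals mark an E-box (CACGTG), an ETS core (CCGGAA) or a GC box (GGGCGG), read on both strands. In DUSP2, 2 of the GC boxes adjoin each other.
DUSP2, chr2:96145441-96145690, minus strand: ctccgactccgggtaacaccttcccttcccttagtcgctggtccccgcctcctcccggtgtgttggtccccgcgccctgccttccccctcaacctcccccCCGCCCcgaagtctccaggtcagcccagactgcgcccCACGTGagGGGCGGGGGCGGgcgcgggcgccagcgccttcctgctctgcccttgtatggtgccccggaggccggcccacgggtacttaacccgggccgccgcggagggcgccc
SPRED1, chr15:38252586-38252835, plus strand: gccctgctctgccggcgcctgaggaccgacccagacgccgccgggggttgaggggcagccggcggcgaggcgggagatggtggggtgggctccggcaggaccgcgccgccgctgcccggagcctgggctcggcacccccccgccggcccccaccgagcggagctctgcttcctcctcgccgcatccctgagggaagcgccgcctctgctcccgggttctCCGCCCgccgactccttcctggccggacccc
SPRED2, chr2:65432638-65432849, minus strand: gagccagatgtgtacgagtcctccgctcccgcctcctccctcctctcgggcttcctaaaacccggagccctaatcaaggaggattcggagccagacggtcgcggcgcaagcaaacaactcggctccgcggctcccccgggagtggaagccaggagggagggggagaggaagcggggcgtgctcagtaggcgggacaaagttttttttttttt
SPRY2, chr13:80341127-80341376, minus strand: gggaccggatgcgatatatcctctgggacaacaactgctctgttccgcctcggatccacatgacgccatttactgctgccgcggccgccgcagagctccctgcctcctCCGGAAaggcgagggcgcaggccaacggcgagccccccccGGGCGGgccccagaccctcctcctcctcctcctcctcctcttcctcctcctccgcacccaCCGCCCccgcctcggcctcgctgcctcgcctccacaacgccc

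The upstream runs of DUSP2 and SPRED1 held 74% and 78.4% G or C, against 61.8% in SPRED2 and 70.4% in SPRY2. Motifs through which ERK signalling is known to reach promoters were searched first, namely the CRE (TGACGTCA), the AP-1 site (TGANTCA), the ETS core and the CArG box bound by the serum response factor. In the spellings searched, none of these 4 was found in the runs of DUSP2, SPRED1 and SPRED2, and SPRY2 held 1 CCGGAA. The ETS core was searched only as CCGGAA. Looser forms of the site around GGAA were not searched, so their absence from these runs is not shown. Among 34796 RefSeq promoters of 250 upstream bases, the shares with a match were 1.64%, 6.59%, 14.5% and 1.17%. The E-box and the GC box were added after the letters had been read. DUSP2 held 1 E-box, which occurred in 6.31% of promoters, and 3 GC boxes, which occurred in at least 1 copy in 42.6% of promoters. SPRED1 held 1 GC box, SPRY2 held 2, and SPRED2, in its shorter run, held neither motif. The other RefSeq starts, 1 of SPRED2 (39.2% G or C) and 2 of SPRY2 (62.4% and 41.2%), held none of the 6 motifs. A match is a description of these letters only. An entry was found for 7 of the 10 genes; DUSP4, DUSP5 and ETV5 had none.

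Library totals ranged from 18121993 to 24675830 counts, and 3 counts equalled 0.118 to 0.169 CPM, the count scaled to library size, in 1 library. Markers of B cells summed to 3510 to 7313 CPM and those of germinal centre B cells to 983 to 1290 CPM. Markers of T cells summed to 0.481 to 2.14 CPM, with CD3D and CD2 at 0 in every library, those of myeloid cells to at most 0.481 CPM and those of epithelial cells to at most 0.113 CPM, with KRT8 and KRT18 at 0. In bulk RNA, fewer cells of a kind and less RNA per cell cannot be told apart. A filter on low counts kept 16835 genes for testing, among them 7 of the 10 followed here.

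The order of the genes was set by CPM per kilobase of the longest annotated transcript, since long transcripts yield more reads. In DMSO, DUSP2 stood first at 16.5 ± 1.00 CPM per kilobase (SD, n = 3) and SPRED2 second at 11.1 ± 2.34, with no overlap between the libraries of the genes. SPRED1 followed at 4.45 ± 0.353, DUSP10 at 1.94 ± 0.511 and DUSP5 at 0.851 ± 0.297, each below the libraries of the gene before it. ETV5 at 0.163 ± 0.0759 and DUSP6 at 0.151 ± 0.0446 CPM per kilobase overlapped and could not be ordered. In Ento+AZD the first places were exchanged. SPRED2 reached 16.2 ± 1.92 CPM per kilobase, with libraries between 14.1 and 17.9, and DUSP2 10.5 ± 2.24, with libraries between 8.12 and 12.6. In Ento and in AZD the libraries of both genes overlapped. These lengths come from GENCODE v44 and need not equal those behind the counts.

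DUSP2 encodes a phosphatase, also named PAC1, that is induced in stimulated lymphocytes and dephosphorylates ERK in the nucleus. It was present at 26.5, 27.1 and 29.7 CPM in DMSO (replicates 1 to 3), at 31.7, 26.5 and 30.3 CPM in Ento, at 24.1, 18.3 and 25.4 CPM in AZD, and at 21.2, 13.7 and 18.1 CPM in Ento+AZD. All AZD and all Ento+AZD libraries lay below all DMSO and all Ento libraries, while Ento overlapped with DMSO and AZD with Ento+AZD. The summed T cell markers ran from 0.864 to 1.67 CPM in DMSO, from 1.13 to 2.14 CPM in Ento, from 0.481 to 0.759 CPM in AZD, below all DMSO libraries, and from 0.667 to 0.959 CPM in Ento+AZD, overlapping with DMSO. They came from CD3E alone, at 9 to 51 counts per library, since CD3D and CD2 were at 0 in every library. A link between CD3E and DUSP2 was not tested.

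**Figure D1:**
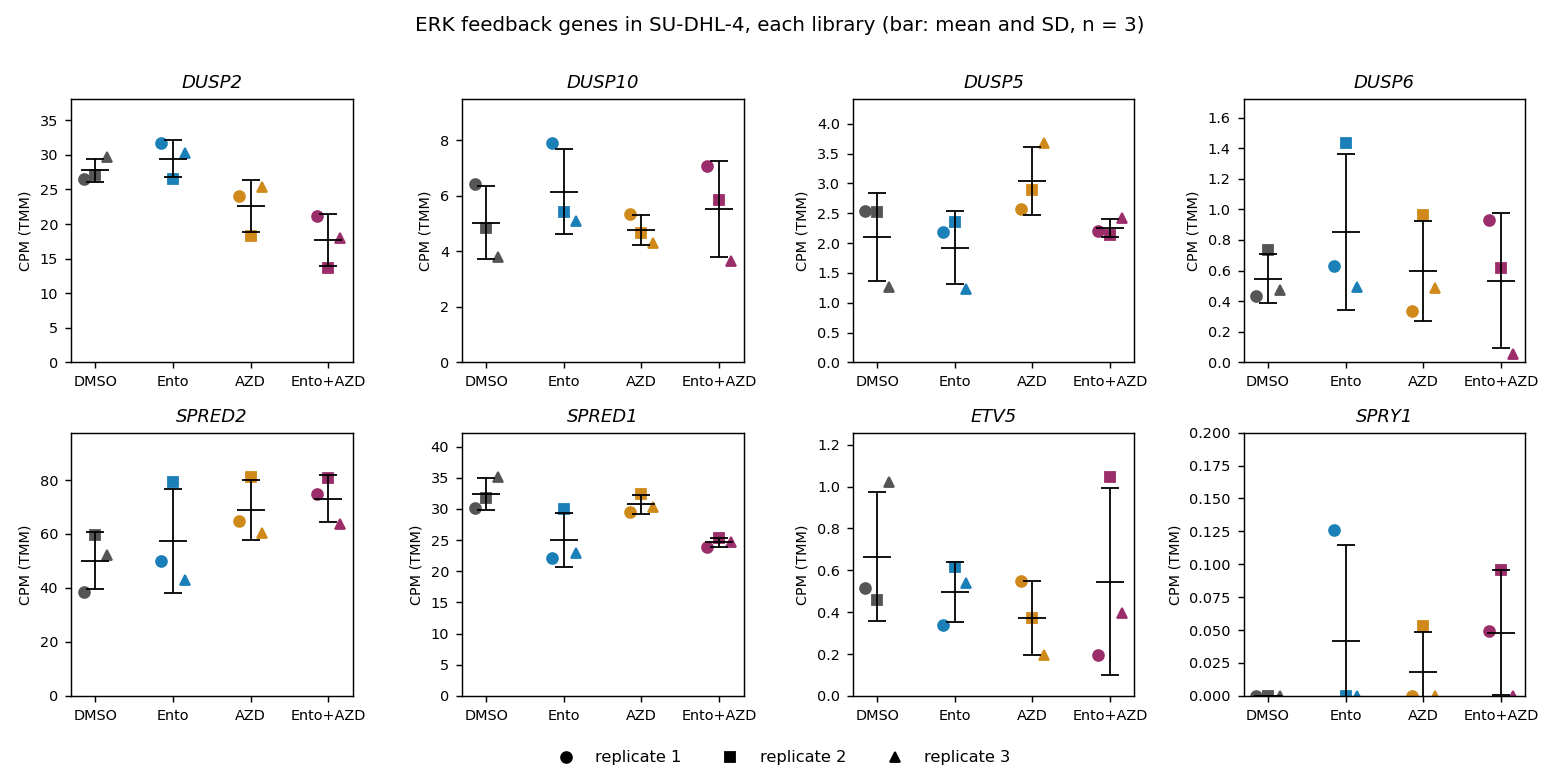
Normalised level in CPM, on a linear axis from 0, of 8 ERK feedback genes in each of the 12 libraries; points are libraries, their shape is the replicate number, and bars are the mean and SD of 3 libraries. DUSP2 was lowest in Ento+AZD, SPRED1 was lower in Ento and Ento+AZD than in DMSO, SPRED2 was highest in AZD and Ento+AZD, and SPRY1 never exceeded 3 counts. SPRY2 and DUSP4, at 0 throughout, are not drawn.

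Against DMSO, DUSP2 fell upon Ento+AZD by 0.67 on the log2 scale (SE 0.11, adjusted p = 0.000343, adjusted by Benjamini-Hochberg over all tested genes after edgeR's quasi-likelihood test), and all 3 same-numbered pairs were lower. Upon AZD alone its log2 fold change was -0.31 (SE 0.11, adjusted p = 0.0550, edgeR's quasi-likelihood test) and upon Ento alone 0.08 (95% interval -0.15 to 0.31). Each of these comparisons uses the same 3 DMSO libraries. The direct test of the single agents showed DUSP2 higher in Ento than in AZD by 0.39 (SE 0.11, adjusted p = 0.0276, same test), and AZD added to Ento lowered it by 0.75 (SE 0.11, adjusted p = 0.000703). Ento added to AZD gave -0.36 (SE 0.11, adjusted p = 0.0502). The departure from the sum of both single-agent changes was -0.44 (95% interval -0.77 to -0.11), with an unadjusted p of 0.0130 in edgeR's quasi-likelihood test and an adjusted p of 0.444. The fall upon Ento+AZD passed with every single library left out, and without the replicate number as a block (adjusted p = 0.0245). Without the block, the calls for Ento+AZD against Ento (adjusted p = 0.0519, edgeR) and Ento against AZD (adjusted p = 0.261) were lost, and the latter was lost with any of the 6 Ento or AZD libraries left out (highest adjusted p 0.139). Upon AZD alone all 3 same-numbered pairs of DUSP2 were lower. That value passed in edgeR without the low-count filter (adjusted p = 0.0389) and with a stricter filter (0.0486). It did not pass in DESeq2 (adjusted p = 0.0522), in limma voom (0.0579) or without the block (0.323, edgeR).

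SPRED1 encodes an adaptor that anchors neurofibromin and thereby lowers RAS activity. It stood at 30.2, 31.7 and 35.2 CPM in DMSO, at 22.1, 30.0 and 22.9 CPM in Ento, at 29.5, 32.4 and 30.3 CPM in AZD and at 23.9, 25.3 and 24.7 CPM in Ento+AZD. Every Ento and Ento+AZD library was lower than every DMSO library, although Ento replicate 2, at 30.0 CPM, came close to DMSO replicate 1, at 30.2 CPM, and AZD overlapped with DMSO.

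SPRED1 fell upon Ento by 0.38 on the log2 scale (SE 0.10, adjusted p = 0.0286, edgeR's quasi-likelihood test) and upon Ento+AZD by 0.40 (SE 0.10, adjusted p = 0.00583). AZD alone gave -0.08 (95% interval -0.28 to 0.13), and Ento+AZD against Ento gave -0.01 (95% interval -0.23 to 0.20). Ento against AZD gave -0.31 (adjusted p = 0.0524, edgeR) and Ento+AZD against AZD -0.32 (adjusted p = 0.0503), with all 3 same-numbered pairs lower in both. The call upon Ento was lost without the block (adjusted p = 0.252, edgeR) and when DMSO replicate 1, DMSO replicate 3, Ento replicate 1 or Ento replicate 3 was left out (highest adjusted p 0.159). The call upon Ento+AZD passed with each single library left out and without the block (adjusted p = 0.0481, edgeR), and was lost when all 4 libraries numbered 3 were left out (adjusted p = 0.0624).

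SPRED2 encodes the other widely expressed adaptor of that family. Its level was 38.7, 59.5 and 52.2 CPM in DMSO, 50.0, 79.1 and 42.8 CPM in Ento, 64.7, 81.3 and 60.3 CPM in AZD, and 75.0, 80.7 and 63.6 CPM in Ento+AZD. All AZD and all Ento+AZD libraries lay above all DMSO libraries, whereas Ento overlapped with DMSO. Replicate 2 had the highest SPRED2 level in all 4 groups.

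SPRED2 rose upon AZD by 0.46 (log2, SE 0.13, adjusted p = 0.0218, edgeR's quasi-likelihood test) and upon Ento+AZD by 0.55 (SE 0.13, adjusted p = 0.00377). Ento alone gave 0.17 (95% interval -0.11 to 0.44). The direct test of Ento against AZD gave -0.29 (95% interval -0.56 to -0.01, adjusted p = 0.1498, same test) and did not pass. Without the filter on low counts the adjusted p of that comparison was 0.0309 (edgeR). The departure from the sum of both single-agent changes was -0.07 (95% interval -0.46 to 0.32). Adding AZD to Ento raised SPRED2 by 0.39 (SE 0.13, adjusted p = 0.0465, same test), while adding Ento to AZD gave 0.10 (95% interval -0.18 to 0.37). SPRED1 and SPRED2, which share their known function, therefore passed tests in opposite directions upon Ento+AZD. All 3 SPRED2 calls were lost without the block (adjusted p = 0.269, 0.108 and 0.404 in edgeR, in the order AZD, Ento+AZD, Ento+AZD against Ento). The call upon AZD was lost when any AZD library, DMSO replicate 1 or DMSO replicate 2 was left out (highest adjusted p 0.100), that against Ento when Ento replicate 1 or 3, AZD replicate 2 or 3, or Ento+AZD replicate 1 or 3 was left out (highest adjusted p 0.270), and that upon Ento+AZD only when all 4 libraries numbered 1 were left out (adjusted p = 0.0923).

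**Figure D2:**
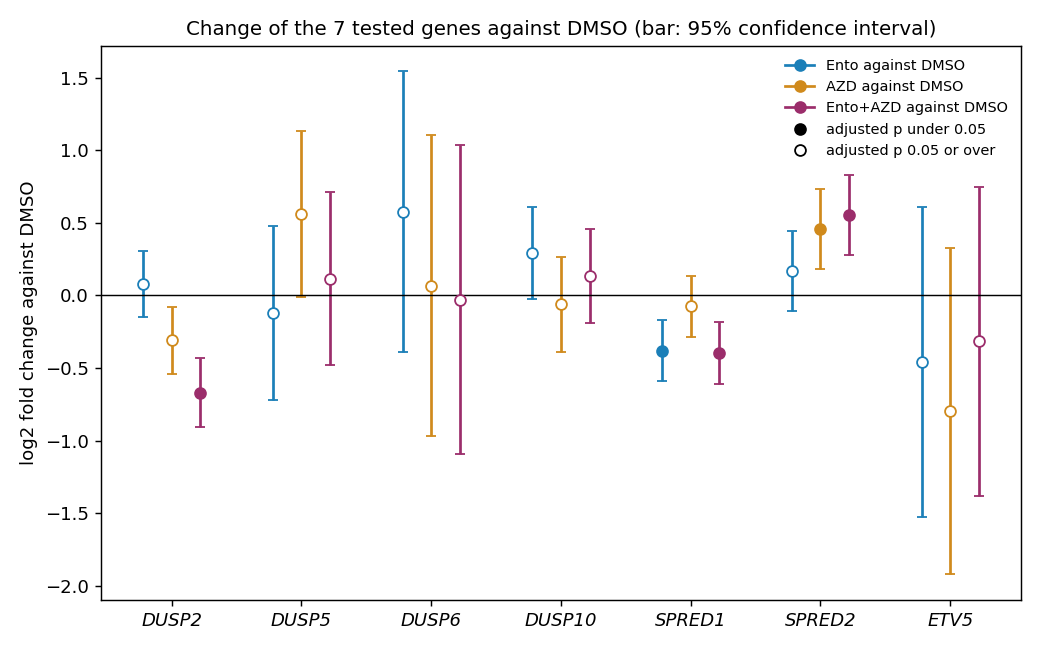
Log2 fold change against DMSO of the 7 genes that could be tested, after Ento, AZD and Ento+AZD; points are the fitted values, bars their 95% confidence intervals, and filled points had an adjusted p under 0.05. DUSP2 reached -0.67, SPRED1 -0.40 and SPRED2 0.55 upon Ento+AZD, while the intervals of DUSP6 and ETV5, at 161 and 137 counts in all, were the widest of the 7 genes.

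DUSP5 encodes a nuclear phosphatase selective for ERK. It was low, with 25 to 76 counts per library, at 2.54, 2.52 and 1.26 CPM in DMSO, 2.19, 2.35 and 1.23 CPM in Ento, 2.57, 2.89 and 3.68 CPM in AZD, and 2.20, 2.14 and 2.43 CPM in Ento+AZD. The AZD libraries lay above those of all other groups, but the lowest exceeded DMSO replicate 1 only slightly, and replicate 3 was about as low in Ento as in DMSO. The log2 fold change upon AZD was 0.56 (95% interval -0.01 to 1.13, adjusted p = 0.148, edgeR's quasi-likelihood test), and Ento against AZD gave -0.68 (95% interval -1.27 to -0.09, adjusted p = 0.115; 0.0178 without the filter on low counts). Most of the AZD value came from replicate 3, with log2 differences from DMSO of 0.01, 0.19 and 1.48 in the same-numbered pairs. It was 0.23 without AZD replicate 3 and 0.10 without all 4 libraries numbered 3, and leaving out DMSO replicate 3 also lowered it. Its pseudogene DUSP5P1 held 133 counts against 598 for DUSP5, so reads that match both may have been split between them.

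DUSP10 encodes a phosphatase that prefers the stress kinases p38 and JNK to ERK. Its level was 6.44, 4.86 and 3.81 CPM in DMSO, 7.90, 5.43 and 5.11 CPM in Ento, 5.35, 4.65 and 4.31 CPM in AZD, and 7.09, 5.86 and 3.67 CPM in Ento+AZD. All groups overlapped, and in each of the 4 groups replicate 1 was highest and replicate 3 lowest. Mean levels differed by 0.65 on the log2 scale between replicate numbers and by 0.34 between groups. The log2 fold change was 0.29 upon Ento (95% interval -0.03 to 0.61, adjusted p = 0.243, edgeR's quasi-likelihood test), -0.06 upon AZD (95% interval -0.39 to 0.27) and 0.14 upon Ento+AZD (95% interval -0.19 to 0.46).

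DUSP6, the cytoplasmic ERK phosphatase and a widely used marker of ERK output, was barely transcribed. It had 11, 16 and 12 counts in DMSO, 15, 28 and 10 in Ento, 8, 18 and 10 in AZD and 19, 13 and 1 in Ento+AZD. All groups overlapped, and the Ento+AZD libraries alone ran from 1 to 19 counts. The 95% intervals of the log2 fold change were -0.39 to 1.55 for Ento, -0.97 to 1.11 for AZD and -1.09 to 1.03 for Ento+AZD, and the last of these spans both a 2-fold rise and a 2-fold fall. An exon of the unnamed gene ENSG00000274021 lies opposite DUSP6, and whether counting used the strand is not given in the sources used here.

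ETV5, an ETS transcription factor of the PEA3 family that is induced by ERK, had 13, 10 and 26 counts in DMSO, 8, 12 and 11 in Ento, 13, 7 and 4 in AZD, and 4, 22 and 7 in Ento+AZD. The groups overlapped in every comparison. Its log2 fold change was -0.46 upon Ento (95% interval -1.53 to 0.61), -0.80 upon AZD (95% interval -1.92 to 0.33) and -0.32 upon Ento+AZD (95% interval -1.38 to 0.75). Exons of DGKG overlap it on the same strand, and reads there could belong to either gene. Its relatives ETV1 and ETV4, singled out after their values were seen, held 0 and 12 counts over all libraries.

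The Sprouty genes were low or silent in these cells. SPRY1 had 0 counts in all 3 DMSO libraries, 3, 0 and 0 in Ento, 0, 1 and 0 in AZD and 1, 2 and 0 in Ento+AZD, at or below the floor of 3 counts everywhere, so no fold is given. SPRY2, the best studied Sprouty protein, and DUSP4, a nuclear phosphatase of ERK, had 0 counts of 258276300, which allows a level of up to 0.0116 CPM over all libraries, counting error only. Of the 2 other Sprouty genes, both singled out after their values were seen, SPRY4 also had 0 counts, whereas SPRY3 had 67, with 1 to 9 per library, and did not pass the filter on low counts. A response of SPRY1, SPRY2, SPRY4 and DUSP4 was not detectable at this depth, and SPRY3 was not tested.

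Counted together, 1 of the 7 tested genes passed at an adjusted p under 0.05 upon Ento (edgeR's quasi-likelihood test), where 8.32% of all tested genes did. Upon AZD 1 of 7 passed, against 22.2% of all genes, and upon Ento+AZD 3 of 7, against 40.0%. In the direct comparisons 2 of 7 passed for Ento+AZD against Ento (20.4% of all genes), 0 of 7 for Ento+AZD against AZD (11.9%) and 1 of 7 for Ento against AZD (14.7%). For the 0 in Ento+AZD against AZD, 2 genes had an unadjusted p under 0.05 in edgeR and 2 an adjusted p under 0.05 in DESeq2, DUSP2 and SPRED1 in both. Of all 16835 tested genes, 4720 passed the former and 1965 the latter. In each of these 6 comparisons the count lay within 1 gene of what the background share would give among 7 genes, between 0.583 and 2.80 genes. None of the 7 met the study's additional cut of a 2-fold change against DMSO, which 1.63% of genes passed upon Ento, 3.19% upon AZD and 8.32% upon Ento+AZD. The median log2 fold change of the 7 genes was 0.08 upon Ento, -0.06 upon AZD and -0.03 upon Ento+AZD, and that of all tested genes was 0.01 in each. For the interaction of both agents, 0 of the 7 genes and 0% of all genes passed in edgeR, where 1652 of 16835 had an unadjusted p under 0.05, and DESeq2 called 7 genes. Over all genes, edgeR called 278 without the filter on low counts, 213 without DMSO replicate 2 and 10 without the libraries numbered 2, none of them among the 7.

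The gene whose profile over the 12 libraries was most like that of DUSP2, among 14164 with a mean of at least 1 CPM, was the zinc-finger gene ZNF134, with a mean absolute difference of 0.0860 between both genes' log2 deviations from their own means, where DUSP2 itself deviated by 0.286. For SPRED1 it was SC5D, a sterol desaturase, at 0.0761 of 0.193, and for SPRED2 the mitotic kinase NEK6, at 0.0949 of 0.280. These are descriptions over libraries that share treatment groups and replicate numbers.

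Other phosphatases of MAP kinases were read from a list of 5 genes, of which 4 could be tested. Upon Ento 0 of 4 passed in edgeR (DESeq2 called 0), upon AZD 2 fell and upon Ento+AZD 3 fell, where 8.32%, 22.2% and 40.0% of all tested genes passed. The median log2 fold change of the list was -0.09, -0.44 and -0.74 in that order. At an unadjusted p under 0.05 in edgeR, 1 of the 4 passed upon Ento, and so did 4098 of all 16835 tested genes. DUSP9 had 1 count in all, and DUSP8 had 2 to 20 counts per library and gave -0.92 upon Ento+AZD (95% interval -1.96 to 0.13).

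DUSP1, an immediate-early phosphatase that acts on p38, JNK and ERK, stood at 31.1, 8.93 and 16.6 CPM in DMSO, 28.6, 6.45 and 20.9 in Ento, 14.3, 3.47 and 8.27 in AZD, and 15.5, 3.48 and 11.1 in Ento+AZD. Replicate 2 was lowest and replicate 1 highest in every group, and the groups overlapped although each AZD library was lower than the DMSO library of its number. DUSP1 fell by 1.15 upon AZD (log2, SE 0.14, adjusted p = 0.000253, edgeR's quasi-likelihood test) and by 0.96 upon Ento+AZD (SE 0.14, adjusted p = 0.000118). These calls rest on the pairing of numbers, since without the block the adjusted p was 0.361 and 0.339.

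DUSP16, a phosphatase of JNK and p38, had 13.6, 13.5 and 14.0 CPM in DMSO, 11.9, 11.2 and 10.5 CPM in Ento, 9.65, 8.76 and 7.89 CPM in AZD and 8.66, 10.7 and 8.57 CPM in Ento+AZD, and no treated library reached the DMSO values. It fell by 0.65 upon AZD (log2, SE 0.12, adjusted p = 0.00222, edgeR's quasi-likelihood test; 0.0543 without the libraries numbered 3) and by 0.56 upon Ento+AZD (SE 0.12, adjusted p = 0.00186). DUSP7, a cytoplasmic phosphatase of ERK, fell by 0.43 upon Ento+AZD (SE 0.11, adjusted p = 0.00751), from 24.2, 34.4 and 23.8 to 21.1, 19.6 and 19.7 CPM. That call was lost without the libraries numbered 2 (adjusted p = 0.0986) and without the block (0.100).

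**Figure D3:**
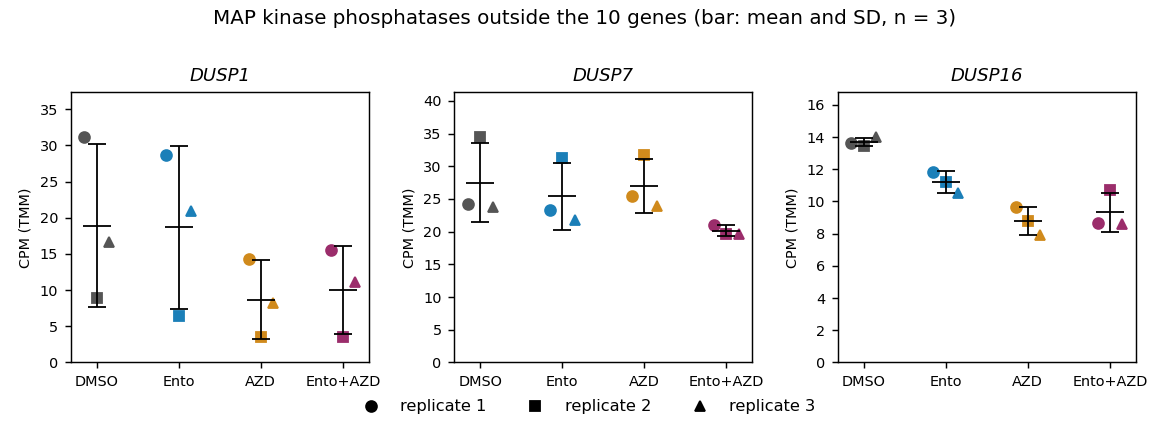
Normalised level in CPM, on a linear axis from 0, of DUSP1, DUSP7 and DUSP16 in each library; points are libraries, their shape is the replicate number, and bars are the mean and SD of 3 libraries. DUSP1 differed between replicate numbers by 2.02 on the log2 scale, more than between groups (1.15), whereas the DUSP16 libraries of Ento, AZD and Ento+AZD all lay below 13.5 CPM, the lowest DMSO value.

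The cascade above these brakes was read from 20 genes, 19 of them tested; KSR1 had 2 counts. Upon Ento 1 rose and 2 fell, upon AZD 2 rose and 4 fell, and upon Ento+AZD 3 rose and 4 fell, against 8.32%, 22.2% and 40.0% of all tested genes, with list medians of -0.03, -0.01 and -0.04. The exchange factors of the RASGRP family, which answer to diacylglycerol or calcium, did not move together. RASGRP2 rose by 0.88 upon Ento (SE 0.10, adjusted p = 0.000136, edgeR's quasi-likelihood test), fell by 0.65 upon AZD (adjusted p = 0.000935) and rose by 0.38 upon Ento+AZD (adjusted p = 0.00643). Its AZD and Ento+AZD libraries overlapped with DMSO, all 3 same-numbered pairs moved in the direction given in each comparison, and without the block all 3 calls were lost (adjusted p = 0.296, 0.306 and 0.382, edgeR). RASGRP1 fell by 0.28, 0.55 and 0.70 (adjusted p = 0.0260, 0.000379 and 1.33e-05, same test), and RASGRP3 rose by 0.77 upon AZD and 0.82 upon Ento+AZD (adjusted p = 0.000253 and 2.16e-05).

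MAPK3, which encodes the ERK1 kinase itself, was at 45.0, 43.3 and 47.2 CPM in DMSO, 40.1, 29.3 and 40.5 CPM in Ento, 32.4, 21.8 and 21.7 CPM in AZD and 22.6, 21.7 and 18.3 CPM in Ento+AZD. Every treated library lay below all DMSO libraries, and AZD and Ento+AZD overlapped with each other. Upon Ento its log2 fold change was -0.31 (SE 0.13, adjusted p = 0.147, edgeR's quasi-likelihood test). It fell by 0.85 upon AZD and by 1.11 upon Ento+AZD (SE 0.13 in both, adjusted p = 0.000911 and 2.91e-05, edgeR's quasi-likelihood test). RPS6KA3, a kinase activated by ERK, fell by 0.29 upon Ento (adjusted p = 0.0489) and by 0.48 upon Ento+AZD (adjusted p = 0.000619). Without the block the cascade counts were 0, 3 and 4 genes upon Ento, AZD and Ento+AZD. Of all 16835 tested genes, 36, 326 and 2398 passed in that fit. The calls of RASGRP1 and RPS6KA3 upon Ento were lost with any 1 replicate number left out (highest adjusted p 0.134 and 0.280).

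**Figure D4:**
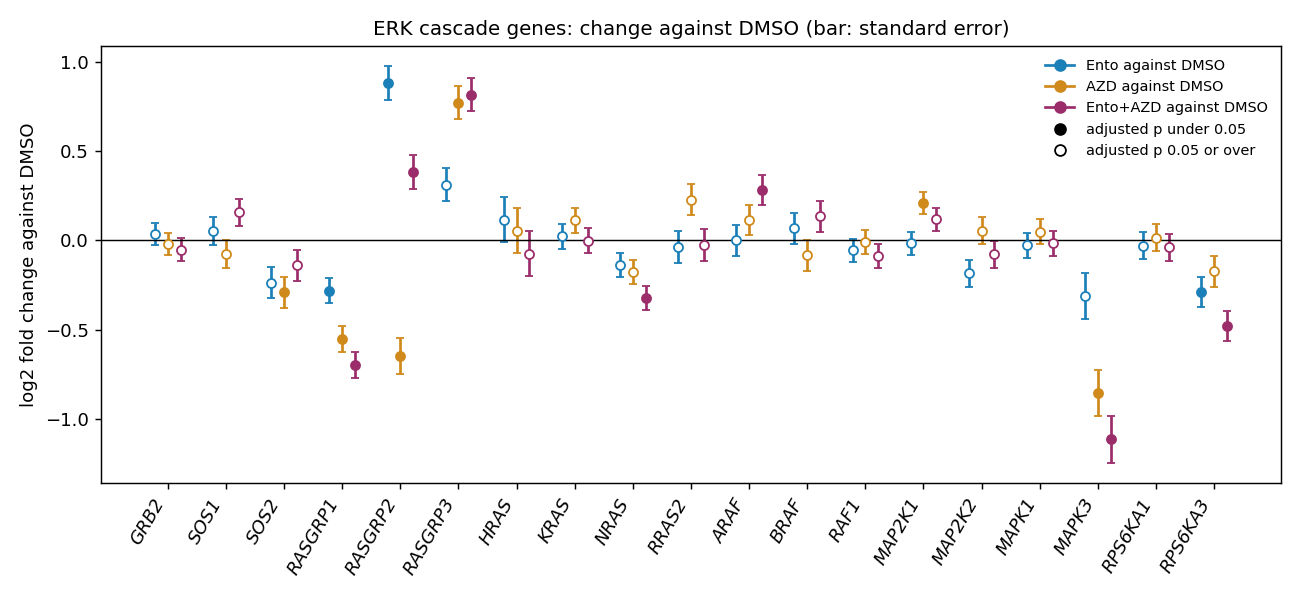
Log2 fold change against DMSO of the 19 tested genes of the RAS-RAF-MEK-ERK cascade, from upstream adaptors on the left to ERK substrates on the right; points are the fitted values after Ento, AZD and Ento+AZD, bars their standard errors, and filled points had an adjusted p under 0.05. RASGRP2 lies at 0.88 for Ento and -0.65 for AZD, and MAPK3 reaches -1.11 for Ento+AZD, the largest change of the list.

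Further brakes on the pathway, most of them on RAS and RAF, came from a list of 15 genes, 12 of them tested. Upon Ento 0 passed in edgeR (DESeq2 called 0), upon AZD 1 rose and 3 fell, and upon Ento+AZD 4 rose and 3 fell, against 8.32%, 22.2% and 40.0% of all tested genes, with list medians of 0.02, -0.02 and 0.02. At an unadjusted p under 0.05 in edgeR, 3 of the 12 passed upon Ento, and so did 4098 of all 16835 tested genes. RASA2, a RAS GTPase-activating protein, fell by 0.48 upon AZD and 0.43 upon Ento+AZD (SE 0.12 in both, adjusted p = 0.0117 and 0.0109, edgeR's quasi-likelihood test). PEBP1, an inhibitor of RAF, rose by 0.30 upon AZD (SE 0.08, adjusted p = 0.0177). LZTR1, an adaptor for the degradation of RAS proteins, rose by 0.52 upon Ento+AZD (SE 0.11, adjusted p = 0.00279), and RASAL3, a GTPase-activating protein of haematopoietic cells, by 0.38 (SE 0.09, adjusted p = 0.00439). Without the block no gene of the list passed in any of the 3 comparisons in edgeR, where 36, 326 and 2398 of all 16835 tested genes did. With 1 replicate number left out, the calls of RASA2 upon AZD and Ento+AZD (highest adjusted p 0.214 and 0.123) and of PEBP1 upon AZD (0.171) were lost at least once, while those of LZTR1 and RASAL3 upon Ento+AZD passed each time.

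Of 18 further transcripts that ERK is known to induce, 10 could be tested. Upon Ento 1 rose, upon AZD 1 fell, and upon Ento+AZD 1 rose and 3 fell, against 8.32%, 22.2% and 40.0% of all tested genes, with list medians of -0.11, 0.07 and -0.27. SRF, the factor that binds the CArG box, rose by 0.40 upon Ento (SE 0.09, adjusted p = 0.0170, edgeR's quasi-likelihood test). FOS, a component of AP-1, fell by 0.90 upon AZD (SE 0.25, adjusted p = 0.0187, same test) and by 1.02 upon Ento+AZD (SE 0.25, adjusted p = 0.00527). In DMSO its replicate 1, at 16.3 CPM, stood far above the other DMSO libraries at 5.73 and 6.29 CPM. Replicate 1 had the highest FOS level in 3 of the 4 groups. IER2 and KLF10, both immediate-early genes, fell upon Ento+AZD by 0.41 and 0.57 (adjusted p = 0.00529 and 0.00923, same test). Without the block none of these genes passed in edgeR, where 36, 326 and 2398 of all 16835 tested genes did upon Ento, AZD and Ento+AZD. Each of these calls was also lost with at least 1 replicate number left out, with highest adjusted p of 0.131 for SRF upon Ento, 0.0899 for FOS upon AZD, and 0.160, 0.0884 and 0.123 for FOS, IER2 and KLF10 upon Ento+AZD.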

How the data were processed

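Poly-A RNA of SU-DHL-4 cells was sequenced as 75 bp single reads. The authors trimmed the reads with CutAdapt through Trim Galore, aligned them to GRCh38.p13 and deposited 1 table of counts per gene made with Rsubread; hg19 also stands in the submitters' processing notes, and the counting settings are not given in the sources used here. The authors also deposited log2 CPM values of 16226 genes, which were recomputed from the counts (largest difference 5.00e-09) and not tested.

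The 10 genes and the gene lists were chosen with earlier results of these data known. The counts were fitted in edgeR 4.0.16 (R 4.3.3) with filterByExpr (minimum count 10), TMM scaling and 1 quasi-likelihood model over all 12 libraries, with treatment group and replicate number as terms. The study fitted a batch term that the labels do not define, and taking the replicate number as that batch is an assumption. P-values were adjusted by Benjamini-Hochberg over 16835 genes and called at 0.05. CPM values are TMM-scaled. The replicate numbers were checked for pairing: deviations from the group means correlated at r = 0.213 to 0.703 in 18 same-numbered pairs of libraries and at -0.627 to 0.325 in 36 others. Alternatives used DESeq2 1.42.0, limma 3.58.1 voom, relative log expression scaling, other filters, no block, and left-out libraries or numbers. The fit was tested on simulated data. All 10 genes were named with their values, and of each other list up to 3 genes per comparison with DMSO, those with the smallest adjusted p among those passing, plus every gene of the phosphatase list. A result that this rule would have named is not reported here.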

Additional observations from a re-analysis of the deposited data

How the results depend on the processing

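The 8 called values of DUSP2, SPRED1 and SPRED2 kept their sign in each of 21 alternative fits, or 168 pairs of value and fit. Of 41 values that were not called, 22 changed sign in at least 1 alternative. These changes made up 57 pairs of value and fit, 55 of them from fits that left out libraries. The fits share most of their libraries and are not independent. The replicate numbers pair the libraries, and without the replicate block the number of genes called fell to 0 in Ento against DMSO, AZD against DMSO, Ento+AZD against Ento and Ento against AZD, and to 2 in Ento+AZD against DMSO. Over all genes the calls in these 5 comparisons fell likewise, from 1401, 3745, 3440, 2478 and 6736 to 36, 326, 206, 539 and 2398, and in Ento+AZD against AZD from 2001 to 17. Over all alternatives 38 calls were lost and 31 gained. With AZD against DMSO, 2 genes, DUSP2 and SPRED2, passed without the low-count filter and with the stricter one. With Ento+AZD against AZD, 2 passed with relative log expression scaling, DESeq2, limma voom or no filter and 1 with the stricter filter. With Ento against AZD, 2 passed with relative log expression scaling or limma voom and 3 without the filter, DUSP5 among them. With libraries or numbers left out, the number called ranged from 0 to 1 for Ento against DMSO, 0 to 2 for AZD against DMSO, 2 to 3 for Ento+AZD against DMSO, 1 to 2 for Ento+AZD against Ento, 0 to 2 for Ento+AZD against AZD and 0 to 2 for Ento against AZD; for the interaction it stayed at 0 of the 7 genes. The cause of these changes was not tested. Depth limits DUSP6 and ETV5, with 161 and 137 counts in all, and leaves SPRY1, SPRY2 and DUSP4 without a test.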
